A study of Mus musculus with 18 samples.

Results

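Ipmk encodes inositol polyphosphate multikinase. A pooled CRISPR screen in a mouse cell line targeted 76 genes, cell death genes and others such as Olfr1404, Hoxa3 and Eif5b. The abundance of the 3 Ipmk sgRNAs was followed through it. These are all sgRNAs whose gene name in the deposited count table is Ipmk, 3 of the 252 in the library, which holds 3 per gene and 24 non-targeting sgRNAs. The host line was Ba/F3, an interleukin-3-dependent mouse pro-B line (named sensBa/F3 in the study's text). One pool was ITPK1-WT and the other ITPK1-KO, a mixture of 6 clones with ITPK1 deletions and no lentiviral integration. Each pool was transduced once with the same library in the lentiGuide-Puro vector and grown for 10 days. The pools were then dyed with CellTrace violet (ITPK1-WT) or yellow (ITPK1-KO), mixed 1 to 1, and injected into the peritoneum of 8 hCD89-transgenic mice, 20000000 cells each. The human receptor CD89 binds IgA, and neutrophils that carry it can kill IgA-coated cells. Mice 1 to 4 were given PBS (vehicle) and mice 5 to 8 anti-hHer2 IgA, and viable cells were sorted by dye after 16 h. This gave 16 recovered libraries of genomic sgRNA inserts, a WT and a KO library per mouse, beside 1 library of each pool from before injection (baseline).

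IPMK is a kinase of the soluble inositol phosphates. It adds phosphates to inositol trisphosphate, which is released from membrane lipid by phospholipase C, and so makes the tetrakis- and pentakisphosphates from which inositol hexakisphosphate is built. ITPK1 is a separate kinase that also makes higher inositol phosphates, by another route. Higher inositol phosphates bind MLKL, the pseudokinase that breaks the plasma membrane in necroptosis. The screen's stated comparison is of treated with untreated mice in cells that have or lack ITPK1, and an Ipmk sgRNA in ITPK1-KO cells is aimed at the second kinase where the first is already lost.

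The 3 Ipmk sgRNAs are shown because sg-2 stood far below the others in every library. The sgRNAs against Itpk1 are shown beside them, since Itpk1 is the only other inositol phosphate kinase gene that the library targets. Each sequence runs 5′ to 3′, and capitals mark the 10 bases nearest the PAM, where mismatches are least tolerated by Cas9.
Ipmk sg-1: caaacgatagAACTTTGGCG
Ipmk sg-2: agacgccgtaGTATTTGGGC
Ipmk sg-3: ctctaccttcTGAATACTGG
Itpk1 sg-1: gttcgaacggCCAAGCGATG
Itpk1 sg-2: cgaacttatcCGAAAGATCG
Itpk1 sg-3: ggtgggcgagTCCTACACAG
GC content was 45% in Ipmk sg-1 and sg-3 and 55% in sg-2, against a range of 25% to 85% and a median of 50% over the 228 targeting sgRNAs. The files name no genome build, so the cut sites are not placed on the genome here.

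Libraries held 317564 to 808586 reads, and the median sgRNA of a library had 1325.5 to 3310.5 reads. The non-targeting sgRNAs took 12.8% to 13.7% of reads in every library, so abundance is given below as a percentage of the mean non-targeting sgRNA of the same library. Between 657000 and 2000000 cells were sorted per recovered library. All mice carried the same pair of transduced pools, so an error over mice measures the spread between mice and not between transductions. Dye and genotype cannot be told apart. Nor can ITPK1 loss be told apart from the clonal origin of the KO pool or from the single transduction of each pool.

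Before injection, Ipmk sgRNAs were already scarce in ITPK1-WT cells and far scarcer in ITPK1-KO cells. Ipmk sg-1 had 1131 reads in the WT baseline library and 200 in the KO one, which are 35.4% and 6.92% of the mean non-targeting sgRNA. Ipmk sg-3 had 1008 reads (31.6%) in WT and 44 reads (1.52%) in KO. Ipmk sg-2 had 60 reads (1.88%) in WT and 0 reads in KO, where a count of 0 allows up to 0.104%. All 3 sgRNAs were thus lower in the KO library, and sg-2 was far below the others in both. No library precedes the 10 days of culture, so low abundance in WT cells cannot be told apart from low representation at transduction.

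The KO to WT ratio of baseline abundance was 0.195 for sg-1, with a 95% Clopper-Pearson counting interval of 0.167 to 0.227, or 5.12-fold lower. For sg-3 it was 0.0482 (0.0348 to 0.0652), or 20.7-fold lower. Ipmk sg-2 was at least 18.1-fold lower with its KO count set to a floor of 3 reads in that library and its 60 WT reads taken as measured, and the counting interval, which takes in the error of both, began at 14.3-fold lower. The reads of the 3 sgRNAs summed, 2199 in WT and 244 in KO, gave an 8.16-fold lower abundance (interval 7.14 to 9.35), a log2 difference of −3.03. There is 1 baseline library per pool, and PCR reads carry no molecular identifiers, so intervals and floors cover counting error only.

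Among the 76 genes, Ipmk had the lowest KO minus WT log2 difference at baseline, and the other 75 lay between −1.20 and 1.50 with a median of 0.023. The nearest was Txnl4b, a spliceosome-associated gene, at −1.20, followed by Daxx, a histone chaperone, at −1.05. In the WT baseline library Ipmk was the fourth lowest gene, with its summed reads at 23.0% of non-targeting. Below it were Txnl4b at 5.11%, Grb2, a signalling adaptor, at 5.78%, and Eif5b, a translation initiation factor, at 9.17%. Itpk1 stood next above it at 24.3%, and the median of the other genes was 68.6%. In the KO baseline library Ipmk was second lowest at 2.81%, between Txnl4b at 2.21% and Grb2 at 3.61%, and Itpk1 stood at 68.9%. Ipmk and Itpk1 therefore had like abundance where ITPK1 was intact and differed widely where it was deleted. The deletion had already removed the gene that the Itpk1 sgRNAs target in KO cells.

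The low abundance of Ipmk sgRNAs in the ITPK1-KO pool left few reads for them in the KO libraries. All 5 counts of 0 in the whole count table belonged to Ipmk sg-2 in KO libraries, and its 9 KO libraries held 13 reads together, a mean of 1.44. That was the lowest mean of the 252 sgRNAs in KO cells. The next was Dpysl4 sg-3 with a mean of 19.3 reads, and Ipmk sg-3, with 50.3, was the sixth lowest. If read share is taken as cell share, the recovered KO libraries held 331 to 896 cells with sg-1, 128 to 223 with sg-3 and 0 to 11.3 with sg-2. The recovered WT libraries held 1536 to 3831 cells with sg-1, 1440 to 3535 with sg-3 and 36.3 to 153 with sg-2 on the same reckoning.

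In the mice, the lower abundance of Ipmk sgRNAs in KO than in WT cells was still present in every animal. Among vehicle mice 1 to 4, Ipmk sg-1 stood at 31.9%, 33.1%, 30.2% and 28.6% of non-targeting in WT cells and at 7.06%, 6.12%, 6.25% and 7.82% in KO cells. Ipmk sg-3 stood at 25.9%, 23.4%, 23.0% and 25.3% in WT cells and at 1.98%, 1.20%, 1.90% and 1.29% in KO cells of the same mice. The backgrounds did not overlap for either sgRNA. The summed reads of other genes separated as fully, as for Daxx (25.8% to 27.5% in KO, 56.7% to 62.3% in WT). Bbc3 (52.5% to 54.0% in KO, 68.1% to 70.1% in WT) and Bax (74.1% to 76.7% in KO, 85.5% to 88.2% in WT) did so too. The share of all sgRNAs that separated in this way was not counted, so separation alone does not set Ipmk apart. For sg-2 the WT libraries had 38, 32, 20 and 36 reads, and the KO libraries had 0, 3, 0 and 4.

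Summed over the 3 sgRNAs, Ipmk was 6.50-, 7.76-, 6.62- and 5.97-fold lower in KO than in WT cells of vehicle mice 1 to 4. Relative to the non-targeting sgRNAs, their mean log2 difference was −2.73, smaller in size than the −3.03 of the baseline libraries. The fitted log2 difference was −2.72 (SE 0.084, 95% interval −2.89 to −2.55, edgeR quasi-likelihood test, adjusted p = 1.22e-29), or 6.57-fold, lower in 4 of 4 mice. It was the lowest of the 76 genes, of which 47.4% passed the threshold of 0.05 in either direction. Each sgRNA passed on its own, where 31.7% of all sgRNAs did. The log2 differences were −2.15 (SE 0.082) for sg-1, −3.94 (SE 0.51) for sg-2 and −3.99 (SE 0.12) for sg-3. These were the 3 lowest of all 252 sgRNAs. Ipmk sg-2 met the minimum of 10 reads on average only through its WT libraries, so its call and rank add nothing to those of the others.

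In IgA mice 5 to 8 the gap between backgrounds was wider. Summed reads were 10.6-, 8.81-, 12.4- and 9.98-fold lower in KO than in WT cells, and these 4 folds all lay above the 4 of the vehicle mice. How many genes had folds separated in this way was not counted, so this separation is not taken as particular to Ipmk. The fitted log2 difference was −3.33 (SE 0.081, interval −3.49 to −3.17, adjusted p = 9.29e-34), or 10.1-fold, lower in 4 of 4 mice and again lowest of the 76 genes, with 44.7% of genes passing. The 3 sgRNAs were again the 3 lowest of 252, of which 34.9% passed, at −2.69 (SE 0.080) for sg-1, −5.03 (SE 0.47) for sg-2 and −4.49 (SE 0.11) for sg-3. With 3, 3, 0 and 0 KO reads, sg-2 again met the minimum only through its WT libraries, so its value and rank add nothing. Before injection the same pools already differed by −3.03, against mean log2 differences of −3.36 in IgA mice and −2.73 in vehicle mice. These 3 values are relative to the non-targeting sgRNAs.

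In ITPK1-WT cells, Ipmk sgRNAs made up a larger share of the survivors in IgA mice than in vehicle mice. Ipmk sg-1 stood at 41.0%, 34.7%, 40.6% and 43.8% of non-targeting in IgA mice 5 to 8, against the vehicle values of 28.6% to 33.1% above. Ipmk sg-3 stood at 36.1%, 32.0%, 44.0% and 41.0% in IgA mice, against 23.0% to 25.9% in vehicle mice. Every IgA mouse was above every vehicle mouse for both sgRNAs. The summed reads of other genes also separated, as for Bbc3 (74.6% to 77.7% with IgA, 68.1% to 70.1% with vehicle). The share of all sgRNAs that did was not counted. For sg-2 the IgA values were 1.64%, 1.39%, 2.10% and 1.03%, and the vehicle values for mice 1 to 4 were 1.03%, 1.03%, 0.746% and 1.10%. The arms overlapped for sg-2, because mouse 8 was within the vehicle range while the other 3 IgA mice were above it.

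Group means in WT cells were 30.9% ± 2.00 (SD, n = 4) with vehicle and 40.0% ± 3.80 with IgA for sg-1, and 24.4% ± 1.41 and 38.3% ± 5.28 for sg-3. The fitted log2 change for sg-1 was 0.31 (SE 0.063, adjusted p = 0.000125), or 1.24-fold, higher in 4 of 4 IgA mice. For sg-3 it was 0.59 (SE 0.070, adjusted p = 2.21e-10), or 1.50-fold, and for sg-2 it was 0.60 (SE 0.20, adjusted p = 0.0179), or 1.51-fold. All 3 passed, where 27.8% of all sgRNAs did in either direction. The call for sg-2 was lost without mouse 3 (adjusted p = 0.0603) or mouse 7 (adjusted p = 0.171).

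Summed over its sgRNAs, Ipmk in WT cells stood at 18.8% ± 0.751 of non-targeting in vehicle mice and 26.6% ± 2.86 in IgA mice, a log2 change of 0.44 (SE 0.062, interval 0.31 to 0.57, adjusted p = 4.05e-06). That is 1.36-fold, with all 4 IgA mice (26.2%, 22.7%, 28.9% and 28.6%) above all 4 vehicle mice (19.6%, 19.2%, 17.97% and 18.3%). Other genes, such as Bbc3, separated as fully, and the share of all genes that did was not counted. Of all genes, 36.8% passed in this comparison, and 9 of the 24 non-targeting sgRNAs also did, 1 higher and 8 lower. The non-targeting sgRNAs had a median log2 change of −0.059. Scaled to the non-targeting sgRNAs, 34 genes were higher and 2 lower, against 16 and 12 as scaled by TMM, and the log2 change of Ipmk was then 0.50. Ipmk ranked second of the 76 genes, after Itpk1 at 0.45 (SE 0.052). The read-file names carry 2 series of sample numbers, one with mice 1 to 5 and the other with mice 6 to 8 and the baselines. Within the first series, the one IgA mouse (mouse 5) had 1.40 times the mean Ipmk abundance of the 4 vehicle mice. The second series holds no vehicle mouse, and with the series as a covariate the log2 change was 0.44 (SE 0.11, adjusted p = 0.0121).

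In ITPK1-KO cells no change of Ipmk with IgA passed the test. Ipmk sg-1 stood at 5.93%, 6.36%, 5.45% and 6.20% of non-targeting in IgA mice 5 to 8, against 6.12% to 7.82% in vehicle mice. The log2 difference for sg-1 was −0.22 (SE 0.11, interval −0.45 to −0.00064, adjusted p = 0.215). Ipmk sg-3 stood at 1.44%, 1.30%, 1.55% and 2.40% in IgA mice, within or above the vehicle range of 1.20% to 1.98%, with a log2 difference of 0.09 (SE 0.24, interval −0.37 to 0.55, adjusted p = 0.873). The arms overlapped for both sgRNAs. For sg-2 the IgA libraries had 3, 3, 0 and 0 reads and the vehicle libraries 0, 3, 0 and 4, under the minimum for a test, and no change was detectable at that depth.

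Summed reads in KO cells gave 2.82% ± 0.279 in vehicle mice and 2.57% ± 0.224 in IgA mice, a log2 difference of −0.16 (SE 0.11, interval −0.39 to 0.063, adjusted p = 0.311). Of all genes 13.2% passed in KO cells, and of all sgRNAs 10.4%. The upper end of the interval lies below the log2 change of 0.44 measured in WT cells. The sum in KO cells rests mainly on sg-1.

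The difference between the IgA effects, KO minus WT, was −0.62 on the log2 scale for summed Ipmk reads (SE 0.13, interval −0.87 to −0.36, adjusted p = 0.000300). This was the lowest value of the 76 genes, of which 5, or 6.58%, passed in either direction. The others were Itpk1 at −0.48, Ripk1, a kinase of the TNF receptor complex, at −0.19, Zbp1, a nucleic acid sensor of necroptosis, at 0.09 and Commd4 at 0.26. With libraries scaled to the non-targeting sgRNAs, Zbp1 missed the threshold. KO cells already lack the gene that the Itpk1 sgRNAs target, so the value for Itpk1 is no parallel to that of Ipmk. Of the Ipmk sgRNAs, sg-1 passed at −0.54 (SE 0.12, adjusted p = 0.000651), where 3.97% of sgRNAs did. Ipmk sg-3 had a like difference of −0.50 but a larger error (SE 0.21, adjusted p = 0.244), and sg-2, at −1.09 (SE 1.09, adjusted p = 0.745), was not measured closely enough to tell. The sg-1 call was lost without mouse 4 (−0.40, adjusted p = 0.0781), while sg-3 passed without mouse 8 (−0.68, adjusted p = 0.0339). The sum weighs the sgRNAs differently by background. In IgA mice, sg-1 and sg-3 had mean reads of 1194 and 1143.5 in WT cells, and of 212.5 and 58.25 in KO cells. The −0.62 of the sum was larger in size than the value of sg-1 or of sg-3.

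Set against the baseline library of the same pool, Ipmk in WT cells was lower in vehicle mice and mostly higher in IgA mice. With 0.5 reads added, the summed log2 change from baseline in WT cells was −0.29 ± 0.058 (SD, n = 4) with vehicle, below 0 in 4 of 4 mice, and 0.21 ± 0.16 with IgA, above 0 in 3 of 4. By sgRNA, the WT changes were −0.20 ± 0.093 and 0.17 ± 0.14 for sg-1, and −0.37 ± 0.083 and 0.27 ± 0.20 for sg-3, vehicle before IgA. For sg-2 they were −0.95 ± 0.24 and −0.33 ± 0.42, so sg-2 was below its baseline on average in both arms. The arms of WT cells thus lay on either side of the baseline for sg-1, sg-3 and the sum.

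In KO cells the summed change from baseline was −0.0030 ± 0.14 with vehicle and −0.14 ± 0.12 with IgA, within or near 1 SD of 0. Ipmk sg-1 was below its KO baseline in all 4 IgA mice, at −0.21 ± 0.097. The baseline is 1 library per pool, so these values carry no test, and its own error is in every one of them. The vehicle mice and the baselines lie in different series of sample numbers, and their difference cannot be told apart from that of the series. IgA mice 6 to 8, which share the series of the baselines, had a summed change of 0.21 ± 0.20 in WT cells and −0.12 ± 0.15 in KO cells.

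Across the 6 conditions the summed level of Ipmk was highest in WT cells of IgA mice (26.6%), followed by the WT baseline (23.0%) and WT cells of vehicle mice (18.8%). The KO cells came last, at 2.82% with vehicle, 2.81% at baseline and 2.57% with IgA, and these 3 did not differ beyond their spread. The WT baseline lay within 2 SD of the IgA mice, of which mouse 6 (22.7%) was below it. The vehicle mice were all below it.

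The spread between mice differed among the sgRNAs and arms. The chi-square of counts per degree of freedom over the 4 WT libraries of IgA mice was 10.2 for sg-1, 3.65 for sg-2 and 22.2 for sg-3, against a median of 2.84 over all sgRNAs. In the WT libraries of vehicle mice it was 4.00, 0.685 and 2.53, against a median of 1.91. In KO cells the values for sg-1, sg-2 and sg-3 were 1.05, 1.87 and 4.76 with IgA (median 2.41) and 3.19, 1.48 and 2.83 with vehicle (median 2.06). The IgA mice thus varied more for sg-1 and sg-3 in WT cells than counting error or the typical sgRNA would give.

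Over the 8 recovered WT libraries, the genes whose log2 change from the WT baseline was most like that of Ipmk were Itpk1, with a root mean square difference of 0.163, Hspbap1 at 0.227 and Spata2 at 0.230, where the median of the 75 other genes was 0.266. These are descriptions, since all genes of a library share its reads and scaling. Over all 17 libraries other than the WT baseline, KO libraries included, the nearest were Txnl4b (1.16), Daxx (1.34) and Grb2 (1.75), against a median of 2.27, and Itpk1 was the farthest of the 75 at 3.40. The WT baseline was subtracted from the KO libraries too, so this order largely restates the baseline KO minus WT differences. Those were −1.20 for Txnl4b, −1.05 for Daxx, −0.68 for Grb2 and 1.50 for Itpk1. Itpk1 rose from 22.0% to 31.3% of non-targeting with IgA in WT cells. In KO cells, which already lack the gene that its sgRNAs target, it stood at 73.3% with vehicle and 72.8% with IgA.

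Of 20 genes of inositol phosphate metabolism that were listed, the library targets only Ipmk and Itpk1, and both rose with IgA in WT cells. Neither passed in KO cells. Those cells already lack the gene that the Itpk1 sgRNAs target, so the result for Itpk1 there follows from the design. It is no parallel to that of Ipmk, which rests on few reads in KO cells. The 9 listed necroptosis genes, all targeted, had a median log2 change of −0.0063 with IgA in WT cells against −0.0033 over all genes. Of these, Cyld (0.13), a deubiquitinase, Ripk3 (0.08), the kinase that activates MLKL, and Tnfrsf1a (0.06), a TNF receptor, rose. Fadd (−0.14), an adaptor of death receptors, Zbp1 (−0.08) and Ripk1 (−0.07) fell, although neither Zbp1 nor Ripk1 met the threshold once libraries were scaled to non-targeting reads. With that scaling 4 were higher, Pgam5 added, and 1 lower, and as scaled by TMM 36.8% of all genes passed. Mlkl had a log2 difference of −0.0063 and did not pass. In KO cells 1 of the 9 rose (Cyld, 0.19) and 1 fell (Ripk1, −0.26), with a median of 0.013 against 0.0071 over all genes, of which 13.2% passed. Scaling to non-targeting reads gave 3 higher in KO cells, with Ripk3 and Tnfrsf1a added (adjusted p = 0.0349 for each), and 1 lower. The change of Ipmk in WT cells was above that of each of these 9 genes.

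In the comparison of KO with WT cells, the 9 necroptosis genes had log2 differences of −0.11 to 0.12 with vehicle and −0.07 to 0.06 with IgA. With vehicle, where 47.4% of all genes passed, 1 was higher in KO (Ripk1, 0.12) and 2 lower (Fadd, −0.11, and Cyld, −0.08), and with IgA, where 44.7% passed, 1 was higher (Zbp1, 0.06) and 2 lower (Pgam5, −0.07, and Ripk1, −0.07). Scaled to the non-targeting sgRNAs, the counts with vehicle were again 1 and 2, but with IgA none was higher and 5 were lower, Zbp1 no longer passing and Cyld, Ripk3 and Tnfrsf1a added. The 4 genes set beside Ipmk for their low abundance or nearest baseline difference were Txnl4b, Grb2, Daxx and Eif5b. Their KO minus WT log2 differences in vehicle mice were −1.30, −0.78, −1.18 and 0.36, all of which passed. As scaled by TMM, none of the 4 passed for IgA against vehicle in either background. Grb2 in WT cells (0.23, adjusted p = 0.0605) passed when scaled to the non-targeting sgRNAs (0.28, adjusted p = 0.0119) or to total counts (0.23, adjusted p = 0.0492). Ipmk was lower in KO cells by more than any of these.

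The authors' deposited table of MAGeCK results ranked Ipmk sg-3 first of 252 sgRNAs in WT cells, with a log2 fold change of 0.67 (p = 0.0103, FDR 0.998). The authors' deposited table gave 0.41 for sg-1 (p = 0.109) and 0.55 for sg-2 (p = 0.831), and no sgRNA there had an FDR under 0.05 in WT cells, while 12 had one in KO cells, none of them against Ipmk. For KO cells the authors' deposited table gave −0.13 for sg-1, −0.20 for sg-2 and −0.092 for sg-3, with p-values of 0.492, 0.578 and 0.791. All 3 had the same direction in that table as in the counts for WT cells, and sg-3 in KO cells had the opposite sign.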

How the data were processed

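Read counts per sgRNA were used as the authors deposited them. To make them, per the design text, reads were matched to the sgRNA library without mismatches and scored by MAGeCK RRA (0.5.6). No source used here names the aligner. The authors deposited log2 fold changes, p-values and FDRs from it. The mouse, arm and cells sorted (another unit) come from the legend that the authors deposited. All 76 gene names matched RefSeq (GRCm38.p6, names only). sgRNAs or summed genes with a mean of at least 10 reads were fitted in R 4.3.3 with edgeR 4.0.16 (TMM, quasi-likelihood, Benjamini-Hochberg over all features, threshold 0.05) and limma 3.58.1. The backgrounds were fitted apart for IgA against vehicle and jointly, over 16 libraries, for the rest. The procedure was tested on simulated data. No 2 libraries of a group were duplicates. The members, lists and the genes named (Ipmk, Itpk1, both lists, the low-abundance genes, the 3 nearest in pattern, and calls in the difference) were chosen with earlier results of these data known.

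Both libraries of a mouse come from 1 animal, so mouse numbers pair them. The correlation of their deviations from group means over 238 sgRNAs was −0.083 to 0.26. The planned fit had no block. Alternatives were other scalings (DESeq2 1.42.0 size factors, total, non-targeting), DESeq2's test, other filters, pseudocounts, a joint fit, the series as covariate, the block and each mouse left out.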

Additional observations from a re-analysis of the deposited data

Results flagged for a closer look

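The IgA effect on summed Ipmk reads differed between backgrounds by −0.62 on the log2 scale, KO minus WT (adjusted p = 0.000300, edgeR interaction term). Ipmk rose in WT cells, and in KO cells its difference of −0.16 did not pass. The same difference for Ipmk sg-1 was −0.54 (adjusted p = 0.000651). The sum weighs sg-1 and sg-3 differently by background, and its value was larger in size than that of either. What underlies it was not tested. For the 3 sgRNAs and their sum, 16 groups of 4 libraries were examined for a mouse apart from its group. The rule asked that the gap to the next mouse take up most of the group's range, and no mouse met it. With 4 mice such a rule has little power. It did not flag mouse 8 for sg-3 in KO cells (2.40%, against 1.30% to 1.55% in the other IgA mice).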

How the results depend on the processing

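The 5 tested comparisons of summed Ipmk reads kept direction and side of the threshold under all 16 alternatives run for each. The other filters left all 76 genes in, so they could not change these summed results. The series is shared by both libraries of a mouse, so as a covariate it could hardly move KO against WT or the difference. For IgA against vehicle, that covariate left only mouse 5 to give the IgA effect. Without mouse 5, arm and series could not be told apart. Neither setting can therefore show that the IgA effect is independent of the series. The log2 change in WT cells ran from 0.40 to 0.52 (adjusted p up to 0.0121), that in KO cells from −0.23 to −0.10, and the difference between them from −0.69 to −0.53 (adjusted p up to 0.0132). KO against WT ran from −2.79 to −2.65 with vehicle and from −3.41 to −3.25 with IgA. The log2 ranges were the same with each mouse left out, where the edgeR adjusted p in WT cells was at most 0.000212. The mouse as a replicate block gave −0.61 for the difference (adjusted p = 2.30e-06), and the pairing changed no Ipmk call and no count by over 1.5 times. For sg-3 in KO cells the sign turned with the series as covariate (−0.099) and without mouse 2 (−0.018), mouse 4 (−0.011) or mouse 8 (−0.11), and it passed in none (−0.11 to 0.22 over the mice left out). The sg-2 call in WT cells was also lost with the series as covariate (0.70, adjusted p = 0.243) and in the joint fit (0.60, adjusted p = 0.0582). With the series as covariate, 10 genes were called in WT cells in place of 28 (sgRNAs 17 in place of 70) and 5 in KO cells in place of 10 (sgRNAs 15 in place of 26). Without mouse 7, 17 genes and 45 sgRNAs were called in WT cells, and without mouse 6, 17 sgRNAs in the difference in place of 10. Scaling to the non-targeting sgRNAs moved the split of higher and lower calls. In WT cells it was 70 and 6 sgRNAs against 35 and 35, in KO cells 11 and 3 genes against 6 and 4 (17 and 8 sgRNAs against 14 and 12). For KO against WT it was 11 and 20 genes against 17 and 19 with vehicle, and 6 and 30 against 15 and 19 with IgA (18 and 63 sgRNAs against 42 and 46). For the difference it was 1 and 4 genes against 2 and 3, and 2 and 7 sgRNAs against 4 and 6. A minimum of 50 reads left sg-2 with no value. The low counts of sg-2 and sg-3 in KO cells limit what those libraries can show. Replicates are mice that share 1 pool of each background.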

Other observations

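In WT cells of IgA mice, mouse 6 had the lowest abundance of both Ipmk (22.7% of non-targeting) and Itpk1 (28.3%). In mice 5, 7 and 8 Ipmk stood at 26.2%, 28.9% and 28.6% and Itpk1 at 30.0%, 33.9% and 33.0%. From mouse 6, 2000000 WT cells were sorted, as from each vehicle mouse, against 1200000, 1000000 and 657000 from mice 5, 7 and 8. Whether the yield and these values are related was not tested.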
